A study of Mus musculus with 1187 samples.

Results

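Alpl encodes tissue-nonspecific alkaline phosphatase and was followed across single endothelial cells of mouse brain. It is 1 gene of the 46517 in the deposited count table. It was picked because its reads had been seen to run from cells with the arterial genes Bmx or Gkn3 down to cells with the venous genes Nr2f2 or Il1r1, so that gradient is given here as a description with no test. The labels name 597 cells of Pdgfb ret/ret mice and 590 cells of Pdgfb ret/+ mice, in which the growth factor PDGF-B lacks its retention motif on both alleles or on 1 allele. All were adult C57BL/6 mice, 3 months old per the series description, that also carried a Cldn5-GFP and a Cspg4-DsRed reporter. Cells positive for the green and negative for the red reporter were sorted from brain and read by Smart-seq2, which makes full-length cDNA in 1 well per cell. No label names an animal, and the columns of the table give a plate and a well but no genotype, so ret/ret cells were not compared with ret/+ cells and the 1187 cells were treated as 1 pooled sample.

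Tissue-nonspecific alkaline phosphatase sits on the outer face of the plasma membrane through a glycosylphosphatidylinositol (GPI) anchor and needs zinc. It removes phosphate from pyrophosphate, an inhibitor of mineral formation, from pyridoxal phosphate, the circulating form of vitamin B6, and from extracellular nucleotides and bacterial lipopolysaccharide. In brain its activity has long been used as a histochemical stain of arterioles and capillaries that fades towards venules. Bmx is a tyrosine kinase of arterial endothelium, Gkn3 a secreted gastrokine of brain arteries, Nr2f2 the transcription factor that keeps venous identity and Il1r1 the receptor for interleukin-1.

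Alpl (ENSMUSG00000028766.10) lies on the minus strand of chromosome 4 from 137741733 to 137796384 in the GRCm38 build (GENCODE M21), and no annotated gene overlaps it. It has 8 annotated transcripts. The longest, Alpl-201, has 12 exons and its first exon runs from 137796242 to 137796384. Alpl-205 has 6 exons and a first exon inside the gene, from 137766308 to 137766475. The counts are per gene and cannot tell which start was used. Both starts have a RefSeq promoter window (GRCm38.p6) of 250 bases before to 50 bases after the start, and both are shown because every Alpl value below is a sum over them. Capitals mark matches to GGGCGG, the GC box, and TATAAA, the TATA box, on either strand. TGGGAA, the core bound by the Notch effector RBPJ, was searched as well and had no match in these letters.
Alpl upstream start, chr4:137796335-137796634, minus strand: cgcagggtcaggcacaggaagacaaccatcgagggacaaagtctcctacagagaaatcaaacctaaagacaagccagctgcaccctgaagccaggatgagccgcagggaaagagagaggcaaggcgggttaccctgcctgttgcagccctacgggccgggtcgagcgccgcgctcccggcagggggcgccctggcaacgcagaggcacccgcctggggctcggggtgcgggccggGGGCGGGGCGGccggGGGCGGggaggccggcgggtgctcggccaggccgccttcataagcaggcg
Alpl inner start, chr4:137766426-137766725, minus strand: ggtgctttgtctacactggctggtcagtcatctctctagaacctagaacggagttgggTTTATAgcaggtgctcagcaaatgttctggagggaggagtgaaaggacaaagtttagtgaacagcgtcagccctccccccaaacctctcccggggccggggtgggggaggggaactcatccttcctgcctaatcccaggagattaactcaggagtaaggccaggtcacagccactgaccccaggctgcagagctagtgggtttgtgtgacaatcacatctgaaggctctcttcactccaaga

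The upstream window held 3 matches to GGGCGG, the first 2 of them overlapping, with 70.0% G or C and 26 CG pairs. The inner window held 1 match to TATAAA, read on the opposite strand, with 54.3% G or C and 4 CG pairs. Among all 32851 mouse promoter windows of this length, 35.7% held GGGCGG, 13.6% held TATAAA and 25.6% held TGGGAA, and the median window had 52.7% G or C and 7 CG pairs. The upstream window is therefore rich in CG pairs for a promoter of this length and the inner one is below the median.

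The table held 418924921 reads, and a cell had from 100779 to 584112 of them (median 360947) over 1402 to 11043 genes (median 4462). The cells came from 4 plates, named 521, 522, 523 and 524 in the columns, with 300, 290, 285 and 312 cells. Plate may coincide with genotype, animal or sorting day and cannot be told apart from them, so plate values stand beside the main levels of Alpl. Values with no plate named are pooled over plates. All 10 general endothelial markers were read, and Cldn5, the tight junction gene whose promoter drove the sort, was read in 100.0% of cells. No listed marker of another cell type was at 0 reads, and Gja1, a gap junction gene on the astrocyte list, was at 185.3 CPM and read in 42.1% of cells. Levels are in CPM, which scales the reads of a gene to the total of a cell or of a sum of cells. Shares of cells were taken after each cell had been thinned to 100000 reads, so that depth was the same in all. Intervals are 95% and cover counting error only.

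Over all cells Alpl had 73999 reads, or 176.6 CPM (exact Poisson interval 175.4 to 177.9). It was read in 253 of 1187 cells at fixed depth, which is 21.3% (Clopper-Pearson interval 19.0% to 23.8%), and in 25.1% of cells before thinning. Most cells had none, and the few that had it had much: the median over all cells was 0 CPM, the median over the 298 cells with an Alpl read before thinning was 542.9 CPM (quartiles 44.3 and 1098), and the highest cell reached 3254 CPM. The 56 cells with the most Alpl held at least as many of its reads as all other cells together. At the other end, 58 of the 298 cells had a single read.

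Alpl was at 94.3 CPM on plate 521, 154.1 CPM on plate 522, 215.1 CPM on plate 523 and 242.6 CPM on plate 524. The share of cells with a read was 9.67%, 14.1%, 27.7% and 33.3% in the same plate order. The highest plate was thus 2.57 times the lowest. By comparison, 24.9% of the 12428 genes at 5 CPM or more on some plate were at least 2-fold apart between their highest and lowest plate, and 14.5% were at least as far apart as Alpl. The level within cells that had the gene did not follow that order, with medians over cells with a read of 654.5, 692.7, 592.6 and 497.3 CPM on plates 521 to 524. What differed was how many cells had it: 7.67%, 12.1%, 23.9% and 26.6% of cells were at 100 CPM or more.

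The arterial gradient was steep. The 299 cells with a read of Bmx or Gkn3 and of neither venous gene were 25.2% of all cells and held 67.4% of all Alpl reads. The 222 cells with Nr2f2 or Il1r1 and neither arterial gene were 18.7% of cells and held 3.83% of the reads. Between them stood 592 cells with none of the 4 markers, which held 23.4% of the reads, and 74 cells had markers of both kinds.

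Cells with Bmx or Gkn3 had 263.3, 428.0, 726.3 and 617.6 CPM of Alpl on plates 521, 522, 523 and 524. Cells with none of the 4 markers had 17.0, 41.1, 93.8 and 138.3 CPM. Cells with Nr2f2 or Il1r1 had 1.27, 29.8, 50.2 and 74.1 CPM. The order from arterial through unmarked to venous held on each of the 4 plates, and the plate values of the Bmx or Gkn3 cells did not overlap those of either other group, while those of unmarked and venous-marked cells did overlap. Over unmarked cells the pooled log2 ratio of Bmx or Gkn3 cells was 2.51 (474.6 against 82.4 CPM); in that comparison 3.93% of 11849 genes were at least 2-fold higher and 2.35% at least 2-fold lower. Pooled, Alpl was at 474.6 CPM in cells with Bmx or Gkn3 and 36.9 CPM in cells with Nr2f2 or Il1r1, a log2 ratio of 3.65 with 1 CPM added to both sides, with 6.86, 3.80, 3.83 and 3.04 on the 4 plates. Of 11960 genes compared between these groups, 5.04% were at least 2-fold higher in the Bmx or Gkn3 cells and 4.07% at least 2-fold lower. Alpl ranked 32 by that ratio, and since it was chosen for the gradient nothing is read from that rank.

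Pooled, the share of cells moved in the same way as the level. A read of Alpl was found in 43.1% of cells with Bmx or Gkn3 (37.5% to 49.0%), in 15.5% of unmarked cells (12.7% to 18.7%) and in 8.11% of cells with Nr2f2 or Il1r1 (4.88% to 12.5%). On plates 521 to 524 the share was 19.4%, 32.2%, 69.6% and 69.8% of Bmx or Gkn3 cells. It was 2.94%, 6.87%, 17.7% and 26.6% of unmarked cells and 6.25%, 1.96%, 12.5% and 11.9% of Nr2f2 or Il1r1 cells. On plate 521 the unmarked share was thus below the venous-marked one, unlike the level, with 3 and 4 cells read. The venous level rested on few cells: 9 of the 222 were at 100 CPM or more, 1 cell gave 20.8% of the group's reads, and the 504 reads of plate 522 came from 1 of 51 cells. Without plate 524 the pooled level of these cells was 23.9 CPM.

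**Figure D1:**
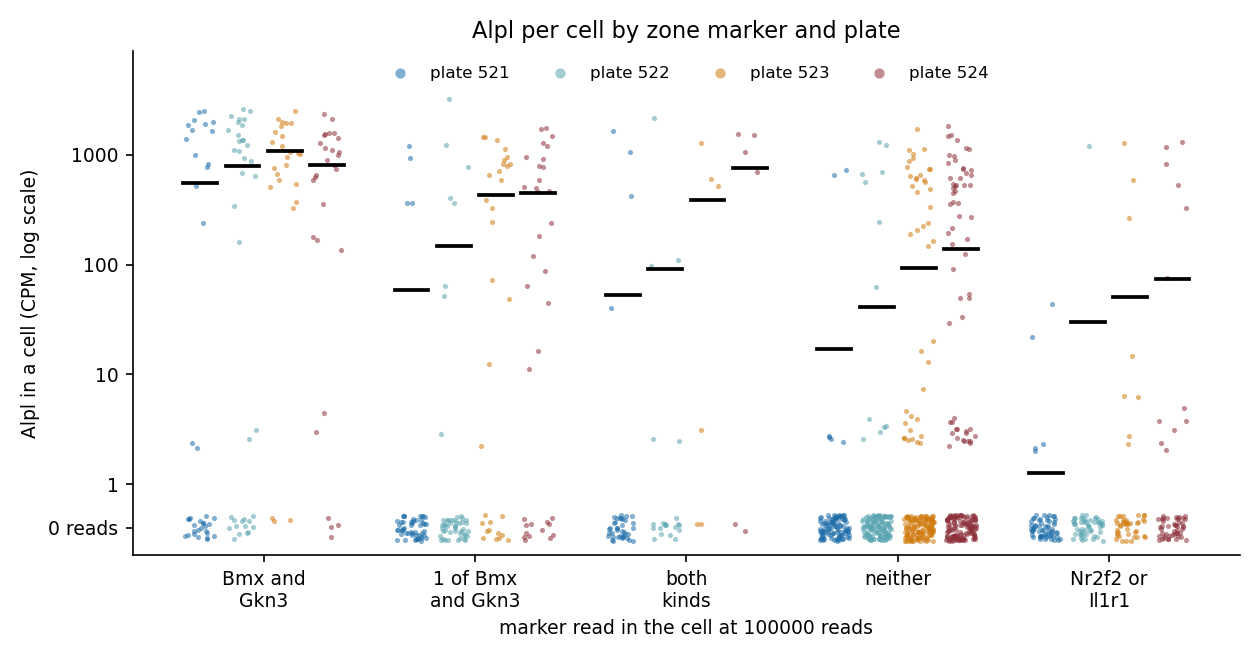
Each point is 1 cell, placed by its Alpl level (CPM, log scale, cells without a read at the bottom) and grouped by the zone markers read in it and by plate; black bars are the summed CPM of a group on a plate. Cells with both Bmx and Gkn3 sit highest, at 555.3 to 1097 CPM by plate, and in the Nr2f2 or Il1r1 group 11.7% of cells have a read before thinning, from 1.96% on plate 522 to 20.3% on plate 524.

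Alpl also differed with the number of arterial markers. The 129 cells with both Bmx and Gkn3 had 555.3, 792.0, 1097 and 811.0 CPM on plates 521 to 524, and 61.2% of them had an Alpl read. The 170 cells with only 1 of the pair had 59.2, 146.8, 433.2 and 451.4 CPM and a share of 29.4%. Every plate value of the first group lay above every plate value of the second, with a pooled log2 ratio of 1.73. Cells with Bmx alone were at 266.0 CPM and cells with Gkn3 alone at 188.2 CPM, and their plate values overlapped widely; without plate 523 the Gkn3 value was 76.7 CPM. The cells with markers of both kinds were at 148.6 CPM with plate values from 52.7 to 756.1 CPM, which overlapped their neighbours in the order on both sides. Without plate 521 or plate 524 their pooled level was 271.5 or 92.8 CPM. They numbered 41, 21, 6 and 6 on plates 521 to 524 and had a median of 5426 genes, against 4747 in the venous-marked group. Whether some of them were wells with 2 cells was not tested.

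Endothelium of larger arteries makes elastic matrix, and 5 of its genes were used to grade the Bmx or Gkn3 cells: elastin (Eln), fibulin-5 and fibulin-2 (Fbln5, Fbln2), which help assemble elastic fibres, matrix Gla protein (Mgp), an inhibitor of calcification, and Ltbp4, which binds latent TGF-beta. With 0 of them read, 61 cells were at 17.8 CPM of Alpl and 3.28% had an Alpl read. With 1 read, 151 cells had 21.3, 233.6, 379.2 and 403.2 CPM on plates 521 to 524, or 239.7 CPM pooled and 32.5% of cells. With 2 read, 34 cells were at 779.4 CPM and 79.4%. With 3 to 5 read, 53 cells had 1477, 1901, 1357 and 1166 CPM on the 4 plates, and 96.2% of them had an Alpl read. Alpl was therefore higher at each grade with more matrix genes, and of the arterial-marked cells without any, all but 2 had no Alpl read at fixed depth.

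Ltbp4 dominated the simple split into cells with and without a matrix gene, because it was read in 74.7% of all cells, and by plate in 52.7%, 63.1%, 91.2% and 91.7%. On that split the pooled values were 582.9 CPM in 238 cells with a matrix read and 17.8 CPM in 61 cells without, a log2 ratio of 4.95. Plate 523 had 1 cell without and plate 524 had 3, and without plate 522 a single Alpl read was left on the low side and the ratio became 9.03. With Ltbp4 set aside, a choice made after these values were seen, cells with Eln, Fbln5, Mgp or Fbln2 had 956.5, 1257, 1163 and 1019 CPM on plates 521 to 524. Cells without those 4 genes had 14.8, 152.2, 371.4 and 382.3 CPM. The groups did not overlap and the log2 ratio was 2.54.

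With Ltbp4 set aside, the plates lay closer in Bmx or Gkn3 cells that had a matrix gene than in those that had none. The highest plate was 1.31 times the lowest in Bmx or Gkn3 cells with Eln, Fbln5, Mgp or Fbln2, and 25.9 times the lowest in those without. With Ltbp4 counted, cells with exactly 1 matrix gene were 19.0-fold apart between plates. Unmarked cells with Eln, Fbln5, Mgp or Fbln2 were 6.02-fold apart and those without 12.1-fold, the same direction with a smaller contrast. The unmarked cells with 1 of those genes or more numbered 10, 14, 20 and 20 on plates 521 to 524. Of these, 1, 1, 2 and 8 had an Alpl read at fixed depth. Among cells with both Bmx and Gkn3 but none of those 4 genes, Alpl was at 3.34, 362.8, 739.9 and 573.3 CPM on plates 521 to 524. Without plate 521 their pooled 336.8 CPM became 516.3 CPM. Those with 1 of those 4 genes or more had 1503, 1338, 1305 and 1099 CPM. Ltbp4 itself was at 238.8, 327.1, 702.8 and 731.7 CPM over all cells of plates 521 to 524, in the same plate order as Alpl. Its part in the plate difference of Alpl was not tested.

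**Figure D2:**
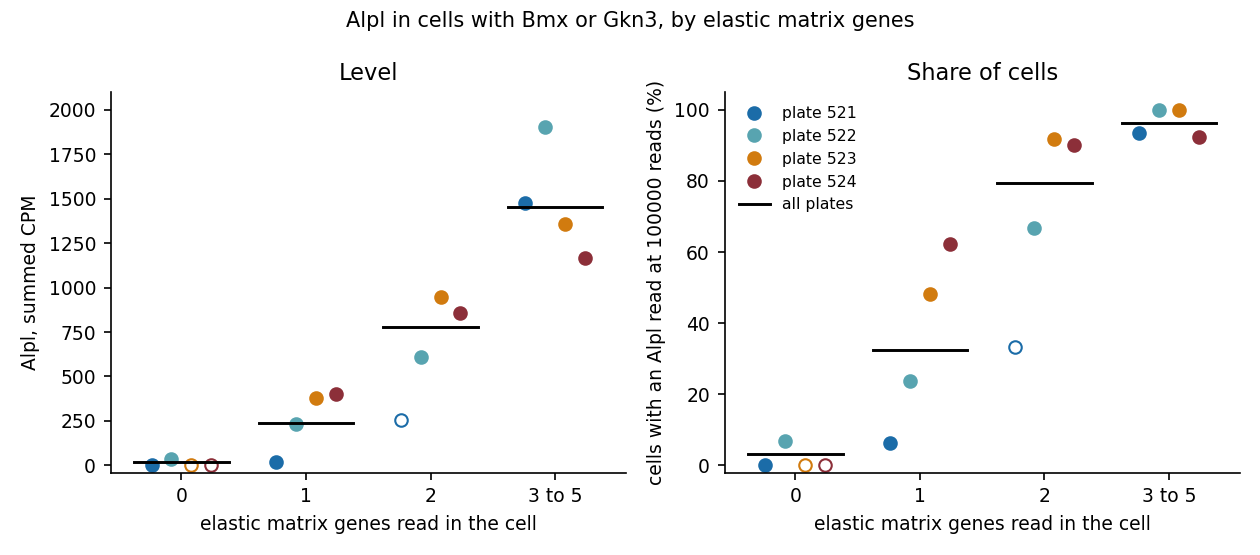
Alpl in cells with Bmx or Gkn3, by how many of 5 elastic matrix genes were read in the cell, as summed CPM (left) and as the share of cells with a read (right). Points are plates, open where under 5 cells, and bars are all plates pooled; with 1 matrix gene the 4 plates spread from 21.3 to 403.2 CPM, and with 3 to 5 they lie at 1166 to 1901 CPM.

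The plate order of Alpl was also found with the mix of marker groups held equal. Bmx or Gkn3 cells were 31.0%, 30.0%, 19.6% and 20.2% of plates 521 to 524, so the plates with more Alpl had fewer arterial-marked cells. With the marker groups of each plate weighted to the pooled mix, the share of cells with Alpl became 8.21%, 12.9%, 31.7% and 37.2%, wider apart than the observed 9.67%, 14.1%, 27.7% and 33.3%. The group with markers of both kinds had 6 cells on plate 523 and 6 on plate 524. Matrix genes were not held equal, and the part of cell mix in the plate difference was not tested.

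A zone score gave a finer scale. It was the mean standardised level of 14 arterial markers other than Bmx and Gkn3 minus that of 9 venous markers other than Nr2f2 and Il1r1, with Alpl in neither. The arterial markers include the matrix genes Eln, Fbln5 and Mgp. The arterial and venous genes that split the unmarked cells below are also in the score, so these are not separate views. Cells were ranked by it and divided into 10 bins of 118 or 119 cells. From bin 1, the most venous, to bin 10, the most arterial, Alpl was at 1.3, 3.38, 31.4, 46.5, 39.0, 60.4, 90.7, 188.2, 299.4 and 969.9 CPM. The share of cells with a read was 4.20% in bin 1, 10.9% in bin 5, 36.1% in bin 9 and 84.7% in bin 10. These pooled values mix plates unevenly: bin 1 had 45, 49, 10 and 15 cells of plates 521 to 524 and bin 9 had 11, 16, 47 and 45. Within plate 524, bins 3 to 8 had 118.2, 180.8, 118.7, 104.4, 121.8 and 110.9 CPM, with no steady rise between them. Pooled, bin 10 was 3.24 times bin 9, and the log2 ratio of bin 10 to bin 1 was 8.72, with 8.23, 10.10, 9.16 and 5.77 on plates 521 to 524.

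On plates 521 to 524 bin 10 was at 992.6, 1374, 819.8 and 846.0 CPM, each above every other bin of its plate. The middle differed. In bin 8 the plates had 20.6, 120.6, 357.7 and 110.9 CPM, and in bin 9 they had 0.25, 344.5, 265.6 and 387.2 CPM, with 11 and 16 cells on plates 521 and 522 there. Plate 521 thus had little Alpl outside bin 10, while the other 3 plates had it in bin 9 as well. Spearman's rho of Alpl with the score was 0.34, 0.48, 0.51 and 0.45 across the cells of plates 521 to 524, a description over cells that share a plate and its depth.

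**Figure D3:**
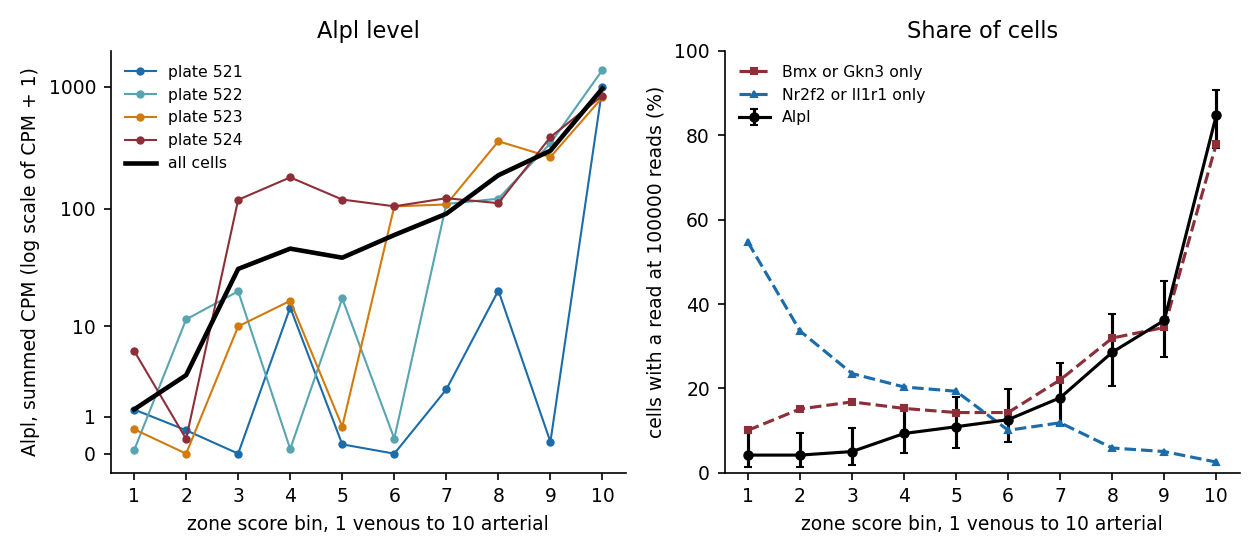
Left, Alpl (summed CPM, log scale of CPM + 1) over 10 bins of cells ranked from venous to arterial by a score made without Alpl, per plate and pooled. Right, the share of cells with an Alpl read in each bin, with exact 95% intervals, beside the shares of cells with arterial or venous markers only; Alpl is read in 84.7% of cells of bin 10.

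The 592 cells with none of the 4 markers were split by the other zone genes, each time into cells with and without a read of that gene. The same split was made with each of 13448 genes that had at least 20 cells on either side. Pooled over plates, Alpl was at least 2-fold higher in the cells with the gene for 3.8% of them and at least 2-fold lower for 13.4%. With the log2 ratios of single plates averaged instead, a choice made after seeing the data, the shares were 11.9% and 47.0%. The unmarked cells were 102, 131, 175 and 184 on plates 521 to 524, and the pooled values mix plates that differ in Alpl, so values within plates stand beside them. Alpl was read at fixed depth in 3, 9, 31 and 49 of these cells in the same plate order. The splits of plates 521 and 522 therefore rest on few cells, and agreement over plates says little there.

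Of 9 arterial genes that could be used, Alpl was at least 2-fold higher with 4 and lower with 0 when pooled. On the plate means it was higher with 5 and lower with 0. Over all genes split, 3.8% were higher pooled and 11.9% on the plate means. Cells with Hey1, a Notch target, had 111.1, 53.0, 180.0 and 241.3 CPM of Alpl on plates 521 to 524, against 0.13, 39.8, 59.4 and 110.9 CPM in cells without it. Cells with Unc5b, a netrin receptor, had 80.9, 178.5, 135.8 and 230.4 CPM, against 8.33, 14.5, 76.8 and 110.0 CPM. Both were higher with the gene on 4 of 4 plates, and so were the arterial ephrin Efnb2, with a pooled log2 ratio of 1.24, and the semaphorin Sema3g, with 1.10. For Sema3g the plate ratios were 6.28, 4.65, 0.43 and 0.44, so plates 523 and 524 fell short of 2-fold. The gap junction gene Gja5, with a pooled -0.05, and the Notch ligand Dll4, with -0.65, were split 2 to 2 over plates.

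With 5 of 6 usable venous genes Alpl was at least 2-fold lower, pooled and on the plate means alike. Over all genes split, 13.4% were lower pooled and 47.0% on the plate means. Cells with von Willebrand factor (Vwf) had 0.12, 36.6, 49.9 and 47.7 CPM of Alpl on plates 521 to 524, against 271.5, 56.9, 116.6 and 166.2 CPM in cells without it. On plate 521 the cells without Vwf were few, as 97 of its 102 unmarked cells had it. Cells with the amino acid transporter Slc38a5 had 0.10, 8.19, 24.0 and 90.8 CPM, against 39.2, 102.8, 153.6 and 181.4 CPM in cells without it. The adhesion molecules Vcam1 and Icam1, with pooled log2 ratios of -2.44 and -1.39, also went with less Alpl on 4 of 4 plates. Ephb4, the venous partner of Efnb2, had a pooled ratio of 0.48 and was split 2 to 2 over plates.

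Capillary genes were mixed, with Alpl at least 2-fold higher with 2 of 8 and lower with 3 when pooled, and with 1 and 4 on the plate means. Over all genes split, 3.8% were higher and 13.4% lower pooled, and 11.9% and 47.0% on the plate means. The plate-mean counts are near those shares, so nothing about capillary genes is read from them. Cells with Mfsd2a, the lipid transporter of brain capillaries, had 22.1, 45.4, 97.8 and 152.3 CPM on plates 521 to 524, against 13.0, 33.5, 77.7 and 31.3 CPM in cells without it. The pooled log2 ratio of 1.45 was thus larger than the plate ratios of 0.72, 0.43, 0.33 and 2.25 on all but the last, plate 524. Cells with the chemokine Cxcl12 had more Alpl on 4 of 4 plates, with plate ratios from 1.43 to 6.92. Slc7a3, Slc7a5 and the transferrin receptor Tfrc went with less Alpl, with pooled log2 ratios of -2.37, -1.82 and -1.23, though only 20 cells lacked Slc7a5.

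With genes of sprouting endothelium Alpl was at least 2-fold lower for 4 of 8 and higher for 0 when pooled. On the plate means it was lower for 5 and higher for 0. Over all genes split, 13.4% were lower pooled and 47.0% on the plate means. Cells with Angpt2, the Tie2 ligand of remodelling vessels, had 10.7, 13.7, 21.9 and 14.6 CPM of Alpl on plates 521 to 524, against 30.6, 63.3, 108.0 and 156.9 CPM in cells without it. Angpt2 cells were 70, 58, 30 and 25 on these plates, and Alpl was lower in them on each. Adm, encoding adrenomedullin, had plate ratios of -4.99, -0.34, -6.70 and -0.98. The 81 unmarked cells with the peptide gene Apln lay on plates 521 and 522 but for 1 cell. They had 0.06 and 0.16 CPM of Alpl there, against 30.4 and 56.1 CPM in cells without it. On these plates only 3 and 9 unmarked cells had an Alpl read at fixed depth.

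**Figure D4:**
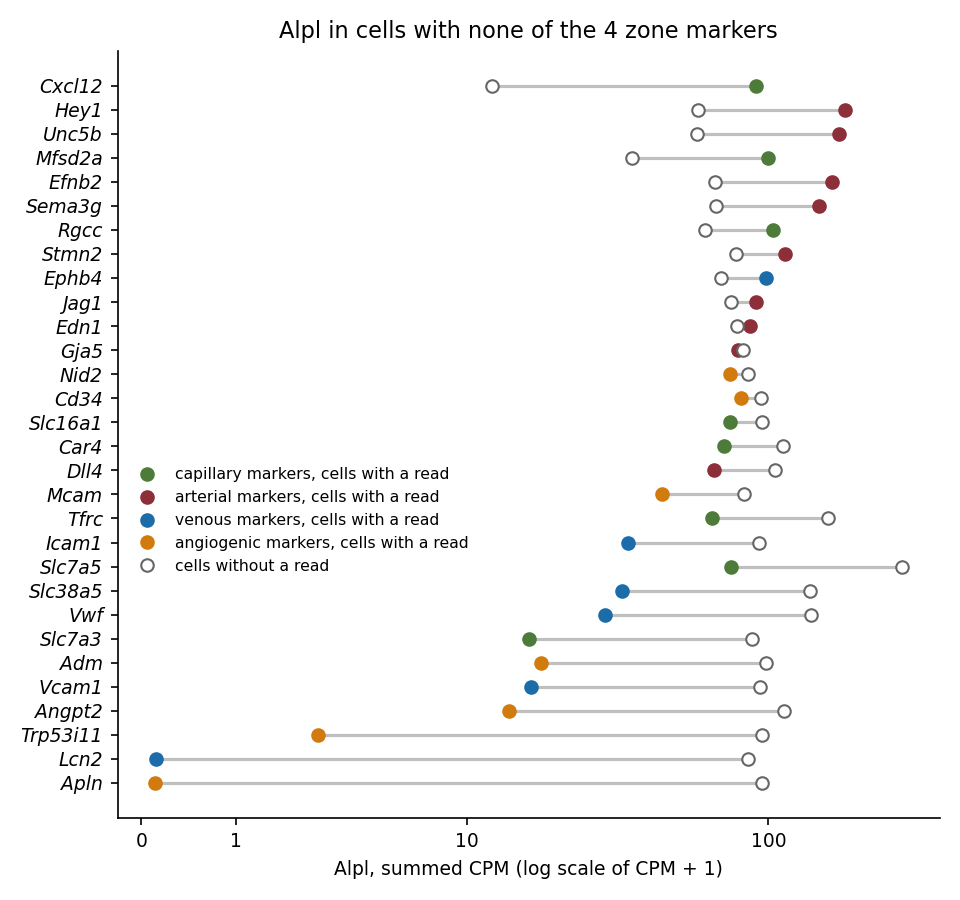
Alpl (summed CPM, log scale of CPM + 1) in cells with none of Bmx, Gkn3, Nr2f2 and Il1r1, pooled over plates and split by each other zone gene into cells with a read (filled, coloured by list) and without (open). Most arterial genes lie in the upper part, with 176.5 CPM of Alpl in Hey1 cells and 59.0 CPM in the rest, and most venous and angiogenic genes in the lower part, with 14.0 CPM in Angpt2 cells and 112.6 CPM in the rest.

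Genes whose pattern was most like that of Alpl were ranked by Spearman's rho within each plate, averaged over the 4 plates, among 10007 genes read in at least 10% of cells. The median gene had a rho of 0.01 and the central 98% lay between -0.15 and 0.21. Only 40 genes were at 0.3 or above and 16 at -0.3 or below. The genes named below were taken only from those with the same sign of rho on all 4 plates. Highest was Slc26a10, a member of the SLC26 anion transporter family, with 0.55, 0.66, 0.53 and 0.34 on plates 521 to 524 and a mean of 0.52. Aif1l, an actin-binding protein, followed with 0.49, 0.71, 0.42 and 0.45 and the same mean.

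Glutamine synthetase (Glul), Bmx itself, the arachidonate lipoxygenase Alox12 and Tmem100, a membrane protein downstream of the ALK1 receptor, each averaged 0.44. Col18a1, the source of endostatin, was at 0.43. The kinase gene Cdk19 and Sema3g were at 0.42, Gkn3 and Amd1, of polyamine synthesis, at 0.41, and Hey1 and the gap junction gene Gja4 at 0.40. Alpl was picked for its gradient over cells with Bmx or Gkn3, so the places of Bmx and Gkn3 restate that choice and nothing is read from them. Mir8114 and Teddm2, both at 0.41, overlap the start of Glul, so their reads may be reads of Glul and the 3 count as 1 locus. Slc26a10, Aif1l, Cdk19 and Col18a1 also overlap another annotated gene, and without a stated strand setting their reads cannot be told apart from that gene's. The 15th and 16th genes of the ranking, at 0.402 and 0.396, hardly differed.

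These genes had graded levels of their own, given here pooled over plates. Slc26a10 was at 210.3 CPM in Bmx or Gkn3 cells, 70.1 CPM in unmarked cells and 16.8 CPM in Nr2f2 or Il1r1 cells. Col18a1 was at 111.4, 12.6 and 0.44 CPM in the same groups and Gja4 at 137.5, 10.1 and 0.36 CPM, so both were closer to all-or-none than Alpl. Glul was read in 94.4% of cells and ran from 862.5 CPM through 374.7 to 254.9 CPM, a shallow slope.

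At the low end stood Tmsb10, an actin-sequestering thymosin, at -0.45, Ctla2a, a protease inhibitor, at -0.42, and Gatm, of creatine synthesis, at -0.40. The amino acid transporter pair Slc7a5 and Slc3a2, which form 1 complex at the blood-brain barrier, were at -0.39 and -0.34, the iron exporter Slc40a1 at -0.34, Ttyh2 at -0.36 and the matrix protein Sparcl1 at -0.33. Slc7a5 was at 757.6 CPM in Bmx or Gkn3 cells, 1474 CPM in unmarked cells and 1213 CPM in Nr2f2 or Il1r1 cells, so it was lowest where Alpl was highest and did not differ much between the other groups. Slc7a5, Ctla2a and Sparcl1 overlap other annotated genes as well, Ctla2a on its own strand, so their reads may not be theirs alone.

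Within the marker groups, the 15 highest genes had a median rho of 0.45 and the 8 lowest of -0.52 among Bmx or Gkn3 cells alone, and medians of 0.21 and -0.16 among unmarked cells. The genes were named from all cells, these included, so the signs of these values were largely fixed by the choice and support nothing. In counts as sparse as these a weak rho is not a finding.

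**Figure D5:**
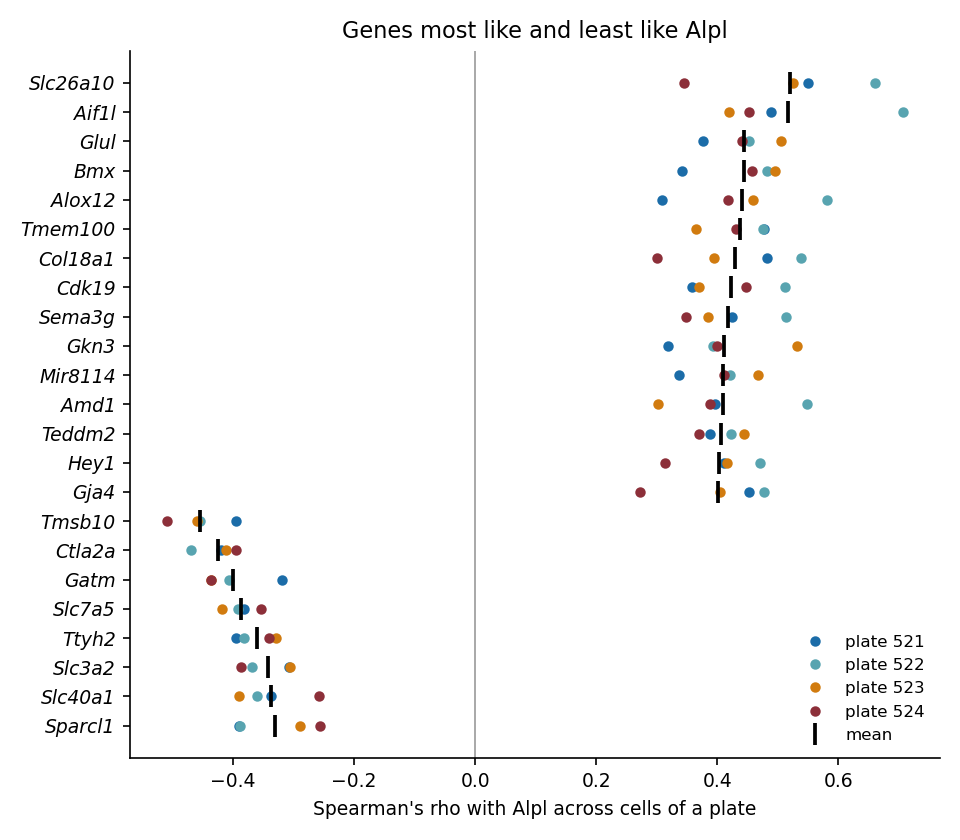
Spearman's rho with Alpl across the cells of each plate (points) and its mean over 4 plates (bar) for the 15 highest and 8 lowest genes of 10007. Slc26a10 and Aif1l lead with a mean of 0.52 and Tmsb10 is lowest with -0.45. Only genes with the same sign on all plates could be shown.

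No other alkaline phosphatase gene had a level that could be described. Alpi and Alppl2 had 0 reads in all cells, which allows up to 0.0072 CPM, and Akp3 had 4 reads.

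Of 18 genes for pyrophosphate, phosphate and calcification, 11 were measured at 5 CPM or more in Bmx or Gkn3 cells or in Nr2f2 or Il1r1 cells. Among them 3 were at least 2-fold higher in the Bmx or Gkn3 cells and 0 lower, beside 5.04% and 4.07% of all genes compared. Of the 3, Mgp and Bmp2 reached 5 CPM only in the Bmx or Gkn3 cells, and Mgp is itself on the arterial marker list. Nothing is therefore read from this count. Their median log2 ratio was 0.31, against 0.00 over all genes compared. Mgp was at 102.6 CPM in Bmx or Gkn3 cells and 1.85 CPM in Nr2f2 or Il1r1 cells, and its log2 ratio of 5.18 became 5.77 without plate 523. Of the bone morphogenetic proteins, Bmp2 was at 9.36 and 0.79 CPM and Bmp6 at 99.1 and 40.6 CPM in the same order. The log2 ratio of Bmp2, 2.53, was 0.74 without plate 521 and 3.47 without plate 523, so its place among the 3 rests on plate 521. Bmp6 was at 145.0 and 72.0 CPM over all cells of plates 521 and 522 and at 0.84 and 1.46 CPM on plates 523 and 524.

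Pooled over plates, the genes that set the supply of pyrophosphate were flatter. Ank, which exports pyrophosphate or its precursor ATP, was at 124.1 CPM in Bmx or Gkn3 cells and 68.6 CPM in Nr2f2 or Il1r1 cells. Its log2 ratios on plates 521 to 524 were 0.41, 0.83, 1.28 and 1.23. Abcc6, which has a like role, was at 57.6 and 53.7 CPM. Enpp1, which makes pyrophosphate from ATP outside the cell, was under 1 CPM over all cells (0.99). Pooled, the phosphate exporter Xpr1 (log2 ratio 0.31) and the phosphate importers Slc20a1 (0.15) and Slc20a2 (-0.05) did not reach 2-fold. The ratios of Slc20a2 on plates 521 to 524 were 1.03, -1.80, 1.10 and 1.34, so its pooled value mixes plates of opposite sign. Those of Slc20a1 ran from 0.76 on plate 521 to -1.31 on plate 524. Pdgfb, the altered gene of these mice, was at 245.3 CPM in Bmx or Gkn3 cells and 161.2 CPM in Nr2f2 or Il1r1 cells, a log2 ratio of 0.60. Its counts do not report the retention motif.

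Of 19 genes for extracellular nucleotides and adenosine, 10 were measured, 1 was at least 2-fold higher and 0 lower, with a median of 0.18. Over all genes compared the shares were 5.04% higher and 4.07% lower. The 1 was the nucleotide receptor P2ry2, at 22.1 CPM in Bmx or Gkn3 cells and 2.98 CPM in Nr2f2 or Il1r1 cells, so only the first group reached 5 CPM. Its log2 ratio of 2.54 was 3.21 with markers read before thinning. Entpd1, the surface enzyme that removes phosphate from ATP and ADP, was at 316.3 and 181.3 CPM. It had a rho of 0.28 with Alpl, rank 56 of the 10007 genes. Nt5e, which makes adenosine from AMP, had 0.90 CPM over all cells.

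Of 3 vitamin B6 genes measured, 0 passed 2-fold in either direction. So few genes show little, as 5.04% of all genes compared were at least 2-fold higher and 4.07% lower. Pdxk, the kinase that traps the vitamin once it has entered a cell, was at 285.8 CPM in Bmx or Gkn3 cells and 316.1 CPM in Nr2f2 or Il1r1 cells. Of 31 genes for building the GPI anchor and loading zinc, 29 were measured. None of them passed 2-fold upwards and 1 did downwards, the mannosyltransferase Pigv at 12.0 and 28.4 CPM in the same order. Its log2 ratio of -1.17 was -0.58 without plate 524 and -0.63 with markers read before thinning, both short of 2-fold. The zinc transporters that supply alkaline phosphatase, Slc30a5 and Slc30a7, were at 118.4 and 69.8 CPM and at 90.6 and 85.1 CPM. Slc30a6, the partner of Slc30a5, was at 29.8 and 39.5 CPM, the other way round and also under 2-fold.

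Other GPI-anchored proteins of endothelium had a median log2 ratio of 0.09. Of 15 measured among 24, 1 was at least 2-fold higher and 3 lower, beside 5.04% and 4.07% of all genes compared. Cdh13, or T-cadherin, was at 104.0 CPM in Bmx or Gkn3 cells and 7.63 CPM in Nr2f2 or Il1r1 cells, a log2 ratio of 3.61 that was 4.38 without plate 521 and 2.59 with markers read before thinning. Car4, a carbonic anhydrase that is also a zinc enzyme on the outer membrane, was at 137.3 and 947.0 CPM, the reverse of Alpl, with a log2 ratio of -2.78 that was -2.08 with markers read before thinning. Its rho with Alpl was -0.32, rank 9996 of 10007. Over plates 521 to 524 Car4 was at 302.1, 517.7, 848.8 and 987.9 CPM, in the same plate order as Alpl. Bst1, with a log2 ratio of -2.28 (-3.30 without plate 522), and the urokinase receptor Plaur, at 8.01 and 35.2 CPM, were lower as well.

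Of 7 endotoxin sensing genes 6 were measured, 0 were at least 2-fold higher and 1 lower, beside 5.04% and 4.07% of all genes compared. The 1 was Lbp, the lipopolysaccharide-binding protein, at 25.1 CPM in Bmx or Gkn3 cells and 73.8 CPM in Nr2f2 or Il1r1 cells.

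Markers of other brain cells were set beside the gradient. Summed over 8 pericyte markers, Bmx or Gkn3 cells had 30.6 CPM (plates 7.56 to 84.4) and Nr2f2 or Il1r1 cells 60.6 CPM (6.75 to 119.7), with 1 of the 8 higher in the Bmx or Gkn3 cells. Summed over 6 smooth muscle markers the values were 11.1 and 12.5 CPM, with 3 of the 6 higher. Summed over 7 astrocyte markers they were 242.5 and 173.0 CPM, with 5 of the 7 higher, and Gja1 alone gave 198.6 and 138.7 CPM of this. The 6 oligodendrocyte markers summed to 8.93 CPM (3.45 to 13.5) in Bmx or Gkn3 cells and 2.46 CPM (1.01 to 3.39) in Nr2f2 or Il1r1 cells. These plate ranges all but met, at 3.45 and 3.39 CPM. The 5 erythroid markers summed to 2.45 and 34.3 CPM, the 6 fibroblast markers to 6.37 and 3.25 CPM and the 6 leukocyte markers to 11.4 and 7.06 CPM. The 8 microglia markers summed to 20.9 and 26.6 CPM, the 6 neuron markers to 13.9 and 17.6 CPM and the 5 choroid plexus markers to 12.2 and 22.8 CPM. Yet 5 of the 8 microglia and 4 of the 6 neuron markers were higher in the Bmx or Gkn3 cells, against the direction of their sums. For choroid plexus 1 of the 5 was higher. The part of any of these in the gradient of Alpl was not tested. In 23 cells 3 or more markers of some other type were above 100 CPM. Of these, 4 had an Alpl read, and without those cells the log2 ratio of Alpl between Bmx or Gkn3 cells and Nr2f2 or Il1r1 cells was 3.61.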

How the data were processed

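Per the labels, single Cldn5-GFP positive, Cspg4-DsRed negative brain cells of Pdgfb ret/ret and ret/+ mice were read by Smart-seq2, without molecular identifiers. The deposited table holds whole-number counts of reads per gene. Per the submitters' processing notes, the tools were featureCounts, Subread (1.4.6-p5), TopHat2 (2.1.1) and SAMtools (0.1.18), and the builds mm10 and GRCm38; no strand setting is named. A minimum of 50000 reads and 1000 genes removed 0 cells; no doublet caller was run. Reads without molecular identifiers are not independent molecules.

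Plate and well names could not be matched to labels, so the planned genotype values are not given and all cells are 1 sample with no test. Counts were summed to CPM, log2 ratios used a prior of 1 CPM, and genes counted as 2-fold apart had at least 5 CPM on either side. Cells were thinned to 100000 reads for markers, shares and rho. The text names the 15 highest and 8 lowest genes by mean rho with 1 sign on all plates and a read in at least 10% of cells, list members past 2-fold, and those whose role in phosphate handling is explained. Zone genes in unmarked cells were used with at least 20 cells on either side. Members and lists were chosen with earlier results of these data known. Scripts ran in Python 3.11.15 with numpy 2.4.6, scipy 1.17.1 and pandas 2.3.3 and were tested on simulated data. Pdxp and Pigy were not analysed here.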

Additional observations from a re-analysis of the deposited data

How the results depend on the processing

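Of 84 recomputed values of the results that answer a comparison, 77 moved by less than the spread between plates (counts by less than 1.5 times), 7 moved by more and 0 changed direction. That spread, the standard deviation over plates, was wide. It was 1.69 for the log2 ratio between marker groups and 2.60 for that of the matrix split, so large shifts could count among the 77. The log2 ratio of Alpl between Bmx or Gkn3 cells and Nr2f2 or Il1r1 cells became 5.80 with Gkn3 against Il1r1 alone, 5.01 with at least 5 marker reads and 4.38 as the mean of the plate values. The split by any elastic matrix gene ran from 4.22 to 9.03 with each plate left out in turn and was 2.54 without Ltbp4. Genes at a rho of 0.3 or more with Alpl were 61 with no filter on low genes, against 40. Genes at least 2-fold apart between Bmx or Gkn3 cells and Nr2f2 or Il1r1 cells were 603 higher and 487 lower, 262 and 192 at 20 CPM or more, and 1236 and 1108 with no minimum. The 7 that moved by more were 5.80, 9.03, 61, 262, 192, 1236 and 1108, and their cause was not tested. Leaving out 1 plate in turn gave 153.5 to 205.3 CPM over all cells, 17.0% to 25.3% of cells, and log2 ratios of 3.42 to 4.12 between the marker groups. Of the 15 genes most like Alpl, 10 to 14 were shared under the other settings. Capillary genes with which Alpl was 2-fold higher in unmarked cells were 1 on plate means, against 2 pooled. The mean over plates and the split without Ltbp4 were chosen after seeing the data. No paired analysis was possible because the columns carry no genotype and no replicate number. There was 1 pooled sample, so no value here has an error over animals, and plate cannot be told apart from genotype or animal. A cell without a read may hold the transcript below this depth.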

Other observations

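Within the 592 cells with none of the 4 zone markers, Alpl was also set against the amount of Mfsd2a. The lower 200 cells by Mfsd2a reads had 45.1 CPM of Alpl, the middle 196 had 99.9 CPM and the upper 196 had 102.2 CPM. Plate moves with this order: plate 521 had 61 cells in the lower class and 4 in the upper, and plate 524 had 33 and 78. The part of plate was not tested. Within plate 524 the lower, middle and upper classes had 109.5, 145.3 and 144.1 CPM.

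Alpl was not alone in its plate order. Over all cells of plates 521 to 524 Ly6c1, a GPI-anchored surface protein of endothelium with the near-identical copy Ly6c2, was at 766.7, 1006, 1276 and 1311 CPM. Entpd1 was at 145.2, 157.4, 240.5 and 284.3 CPM. Neither was 2-fold apart between Bmx or Gkn3 cells and Nr2f2 or Il1r1 cells, with log2 ratios of 0.29 and 0.80. Among the 2513 genes at 100 CPM or more over all cells, 3.7% were at least as far apart between plates as Alpl.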
